A study of Drosophila melanogaster with 4 samples.

Results

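The genes described here act in X chromosome counting, the step at which the Drosophila embryo reads its dose of X-linked activators to choose its sex. There were 7 of them among 17684 RefSeq genes on the X and the 5 autosome arms. They were chosen by name and not by any measured value, though earlier results of these data were known. The X signal elements sisA, sc and upd1 lie on the X. Their partners dpn, gro, da and emc lie on the autosome arms 2R, 3R, 2L and 3L. Every peak that touched the span of a gene or the 5 kb on either side of it was listed.

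As background, the X signal elements are transcribed in the early embryo before cells form, and their summed product switches on the establishment promoter of the master gene Sex-lethal (Sxl) in females. In males the lower X dose leaves that promoter off, and the X is then dosage compensated by the male-specific complex to which Maleless (MLE), an RNA helicase, belongs. sisA encodes a bZIP protein and sc a basic helix-loop-helix activator. upd1 encodes a secreted ligand of the JAK/STAT pathway. Among the autosomal partners, da encodes the maternal helix-loop-helix protein that pairs with Scute, while emc encodes a helix-loop-helix protein without a basic region that sequesters such activators. dpn encodes a repressor of Sxl, and gro the co-repressor that Deadpan recruits.

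MLE sites were profiled by CUT&RUN, which sequences DNA that an antibody-tethered nuclease releases around a chromatin protein, here a rat antibody against MLE. The embryos were whole and male, obtained by crossing in meiotic drive stocks, which skew the sex of the progeny. In the CLAMP RNAi groups the maternal germline driver MTD-GAL4 drove the construct UAS-CLAMPRNAi[val22] against CLAMP, a GA-repeat binding protein. In the control groups the same driver acted on an RNAi construct against GFP. The driver acts in the mothers, so it is maternal CLAMP that the CLAMP RNAi construct targets, and the level of CLAMP left in the embryos was not measured in these data. Embryos were 2-4 h or 0-2 h old, and the titles call both ages pre-MZT (before the handover from maternal to zygotic control) although the series design places the later age after it, where zygotic transcription has begun.

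The series design speaks of 2 replicates per genotype and age, but each of the 4 groups had 1 peak list here. Whether a list stands for 1 replicate or for pooled reads is not given in the sources used here, so no difference between groups has a replicate check and none was tested. All intervals are exact 95% intervals of counting error alone. The lists held 15890 peaks in CLAMP RNAi 2-4 h, 25026 in control 2-4 h, 22489 in CLAMP RNAi 0-2 h and 28246 in control at 0-2 h. The design text puts sequencing at 7000000 to 10000000 reads for an average library, and the depth behind each list is not given in the sources used here. A peak's strength is stated as its score percentile, the share of peaks of the same list whose score is no higher. Percentiles of lists that differ in length place a peak within its own list and show no change between lists. In CLAMP RNAi 2-4 h only 4 score values took 57.1% of all peaks, against 10.9% to 19.7% for the 4 commonest values of the other lists. A score of 32 therefore stood at percentile 61.9 of CLAMP RNAi 2-4 h, against 21.1 of control 2-4 h, 20.3 of CLAMP RNAi 0-2 h and 30.1 of control at 0-2 h. The narrowest peaks, 200 bp wide, were 36.6% of the CLAMP RNAi 2-4 h list and 12.4% to 21.9% of the others. The part of this list's coarse scores in the differences given here was not tested.

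The 7 windows, 96.9 kb in all, held 105 peaks over the 4 lists. There were 19 in CLAMP RNAi 2-4 h and 31 in control at 2-4 h, then 27 in CLAMP RNAi 0-2 h and 28 in control at 0-2 h. Around the X signal elements the numbers were 9 and 9 at 2-4 h, and 13 and 11 at 0-2 h, again with CLAMP RNAi before control. The autosomal partners had 10 peaks in CLAMP RNAi 2-4 h against 22 in control 2-4 h. They had 14 in CLAMP RNAi 0-2 h against 17 in control 0-2 h. CLAMP RNAi 2-4 h thus had 61.3% as many peaks as its control around the 7 genes, close to the 63.5% for the lists as a whole. The shares were 100% for the X signal elements, against 67.8% for all X peaks, and 45.5% for the autosomal partners, against 62.1% for all autosomal peaks. At 0-2 h the 7 genes had 96.4% as many, against 79.6% for the whole lists. The split at this age was 118% for the X signal elements, against 87.6% for all X peaks. For the autosomal partners it was 82.4%, against 77.2% for all autosomal peaks. These shares rest on few and neighbouring peaks and were not tested. With each list restricted to its 15890 strongest peaks, the difference of -12 peaks at 2-4 h was -4. CLAMP RNAi 2-4 h has no more than these peaks, so only the other lists could lose any. CLAMP RNAi 2-4 h then had 9 peaks against 8 in control around the X signal elements, and 10 against 15 around the autosomal partners. The restricted lists held 4166 against 4303 X peaks and 11724 against 11587 autosomal ones.

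**Figure D1:**
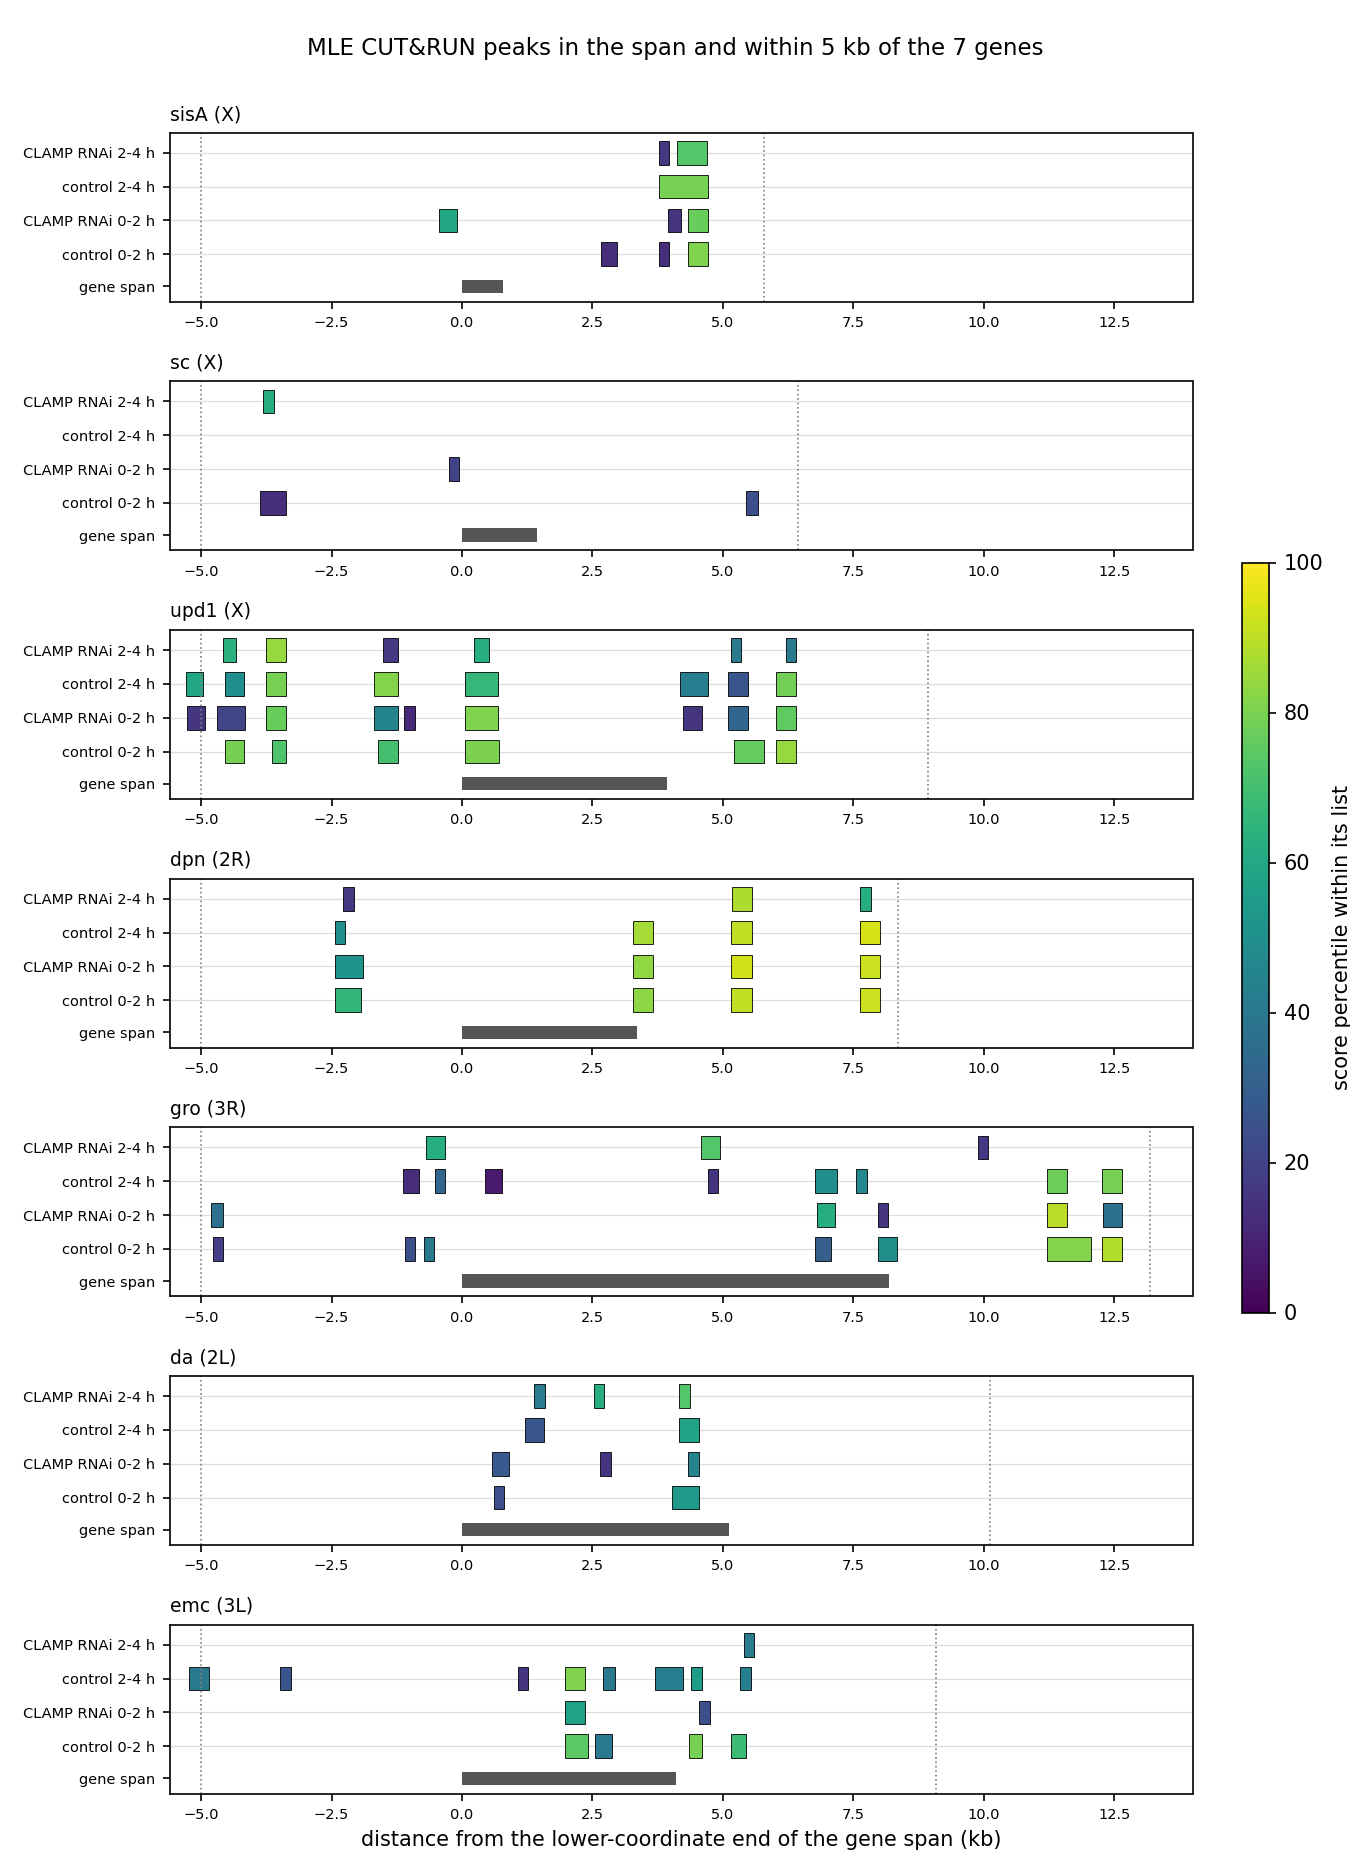
Peaks of each list (rows) around each of the 7 genes, placed by their distance in kb from the lower-coordinate end of the gene span (grey bar); dotted lines mark 5 kb beyond the span and colour gives the score percentile within the list. Peaks line up across the lists around upd1 and dpn, whereas sc has 1 or 2 scattered peaks in 3 lists and none in control 2-4 h.

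Peaks within 5 kb were common around genes in general, so their presence alone sets none of the 7 apart. At least 1 peak lay around 3 of 3 X signal elements in CLAMP RNAi 2-4 h, where 81.8% of X genes had one. In control 2-4 h it was 2 of 3, against 91.6% of X genes. CLAMP RNAi 0-2 h and control 0-2 h each had 3 of 3, against 89.2% and 93.4% of X genes. All 4 autosomal partners had a peak in each list, where the share of autosomal genes was 69.7% in CLAMP RNAi 2-4 h, 86.7% in control 2-4 h, 80.7% in CLAMP RNAi 0-2 h and 88.8% in control at 0-2 h.

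Inside the gene spans the picture was narrower. Of the X signal elements, upd1 had a peak in its span in each list, while sisA and sc had none in any. That is 1 of 3, against 34.2% of X genes in CLAMP RNAi 2-4 h, 44.1% in control 2-4 h, 41.2% in CLAMP RNAi 0-2 h and 48.3% in control at 0-2 h. The spans of sisA and sc are short, at 779 bp and 1438 bp. Among the autosomal partners, 2 of 4 had a peak in the span in CLAMP RNAi 2-4 h, against 23.5% of autosomal genes. In the other lists 4 of 4 did, against 34.2% in control 2-4 h, 29.8% in CLAMP RNAi 0-2 h and 36.6% in control at 0-2 h. The spans of these partners run from 3360 bp in dpn to 8176 bp in gro, above the median of 1710 bp over all genes, and longer spans have more room for a peak.

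The sisA gene lies at chrX:11321579-11322357 of the dm6 assembly. Within its window were 2 peaks in CLAMP RNAi 2-4 h, 1 in control 2-4 h, 3 in CLAMP RNAi 0-2 h and 3 in control at 0-2 h. The site with a peak of each list, chrX:11325350-11326284, began 2993 bp beyond the higher-coordinate end of sisA and overlapped the neighbouring gene Gapvd1. Its strongest peak had a score of 41 (percentile 73.4) in CLAMP RNAi 2-4 h and of 235 (percentile 79.6) in control 2-4 h. At 0-2 h the scores were 147 (percentile 77.0) in CLAMP RNAi and 136 (percentile 80.8) in control. Each of these percentiles lay below the median of the strongest peak over X genes with a peak, which was 80.1 in CLAMP RNAi 2-4 h, 84.3 in control 2-4 h, 83.5 in CLAMP RNAi 0-2 h and 85.9 in control at 0-2 h. Nearest to sisA was a peak at chrX:11321129-11321490, 89 bp from its lower-coordinate end and in no gene, with a score of 75 (percentile 59.9). It was present in CLAMP RNAi 0-2 h alone. A weak peak in l(1)10Bb (score 19, percentile 13.1) occurred in control 0-2 h alone.

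Around sc, at chrX:396060-397497, peaks were few and weak. CLAMP RNAi 2-4 h had 1 peak (score 32, percentile 61.9), control 2-4 h had 0, CLAMP RNAi 0-2 h had 1 (score 29, percentile 19.7) and control 0-2 h had 2 (scores 19 and 26, at most percentile 24.0). The peak of CLAMP RNAi 2-4 h and the weaker one of control 0-2 h fell on the same site, chrX:392186-392678, which overlaps lncRNA:CR44753. The CLAMP RNAi 0-2 h peak, chrX:395811-396010, ended 50 bp below the sc span. Each of the 4 peaks also lay inside CG32816, a long gene whose span contains all of sc. The score percentile of the strongest sc peak was equalled or exceeded by 69.0% of X genes in CLAMP RNAi 2-4 h, by 86.8% in CLAMP RNAi 0-2 h and by 91.6% in control 0-2 h. The lack of a peak in control 2-4 h depended on the 5 kb window. Within 10 kb that list did have a peak around sc, at percentile 66.3, against 61.9 in CLAMP RNAi 2-4 h.

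The upd1 locus, at chrX:18305354-18309291, had the most peaks of the X signal elements. The numbers were 6 in CLAMP RNAi 2-4 h, 8 in control 2-4 h, 9 in CLAMP RNAi 0-2 h and 6 in control at 0-2 h. They merged into 9 sites, of which 6 had a peak of each list, 2 had peaks of control 2-4 h and CLAMP RNAi 0-2 h, and 1 had a peak of CLAMP RNAi 0-2 h alone. The site in the gene itself, chrX:18305410-18306059, lay at the lower-coordinate end of the span. Its score was 32 (percentile 61.9) in CLAMP RNAi 2-4 h and 118 (percentile 66.4) in control 2-4 h. At 0-2 h it was 188 (percentile 80.9) in CLAMP RNAi and 132 (percentile 80.1) in control. It was the strongest upd1 peak of CLAMP RNAi 0-2 h and of no other list.

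Below upd1, away from any gene, lay the site chrX:18301601-18301983. It had scores of 69 (percentile 84.3) in CLAMP RNAi 2-4 h and 238 (percentile 79.6) in control 2-4 h, and of 152 (percentile 77.2) in CLAMP RNAi 0-2 h and 89 (percentile 72.1) in control 0-2 h. It was the strongest upd1 peak of CLAMP RNAi 2-4 h. The strongest of control 2-4 h (score 265, percentile 81.3) belonged to the intergenic site chrX:18303669-18304121, where CLAMP RNAi 2-4 h had a score of 19 (percentile 16.8). On the other side, the site chrX:18311366-18311761 in lncRNA:CR45609 carried the strongest peak of control 0-2 h (score 170, percentile 84.1). Its score was 24 (percentile 41.4) in CLAMP RNAi 2-4 h, 218 (percentile 78.5) in control 2-4 h and 135 (percentile 75.4) in CLAMP RNAi 0-2 h. Which upd1 site ranked highest thus differed from list to list, while the highest percentile stayed between 80.9 and 84.3. This percentile exceeded the median of the strongest peak over X genes with a peak only for CLAMP RNAi 2-4 h (84.3 against 80.1). For control 2-4 h it lay below that median, at 81.3 against 84.3. So it did for CLAMP RNAi 0-2 h (80.9 against 83.5) and control 0-2 h (84.1 against 85.9). From 34.5% (CLAMP RNAi 2-4 h) to 51.6% (control 2-4 h) of X genes ranked at least as high as upd1.

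**Figure D2:**
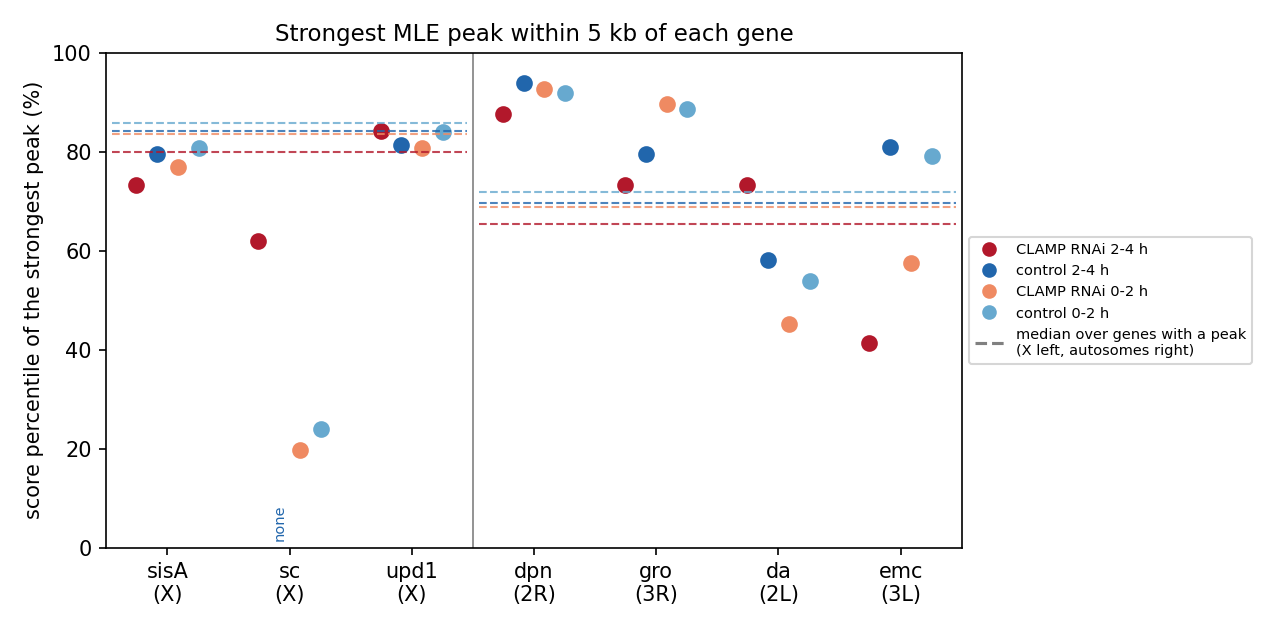
Score percentile of the strongest peak within 5 kb of each gene (points, 1 per list), with the median of the same value over all X genes (left) or autosomal genes (right) that have a peak (dashed lines, in the list's colour). The dpn points, from 87.7 to 93.9, lie above the autosomal medians in each list, and sc has the lowest X points at 0-2 h and no peak in control 2-4 h.

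Of the 7 genes, dpn had the highest ranked peaks within 5 kb. Around this gene, at chr2R:8228971-8232330, there were 3 peaks in CLAMP RNAi 2-4 h and 4 in each of the other lists, at 4 sites. The site chr2R:8236605-8236987 lay 4275 bp beyond the higher-coordinate end of dpn. It was nearer to the next gene, pnut, which starts at chr2R:8237271. The score of this site was 32 (percentile 61.9) in CLAMP RNAi 2-4 h, against 1134 (percentile 93.9) in control 2-4 h. At 0-2 h it was 578 (percentile 92.0) in CLAMP RNAi and 399 (percentile 92.0) in control. It was the strongest dpn peak of both control lists.

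A second intergenic site, chr2R:8234119-8234522, had scores of 80 (percentile 87.7) in CLAMP RNAi 2-4 h and 628 (percentile 90.4) in control 2-4 h. At 0-2 h the scores were 650 (percentile 92.8) in CLAMP RNAi and 316 (percentile 90.3) in control. It was the strongest dpn peak of both CLAMP RNAi lists. The site across the end of dpn itself had the same coordinates, chr2R:8232255-8232633, in the 3 lists that held it. It scored 408 (percentile 86.5) in control 2-4 h, 226 (percentile 83.2) in CLAMP RNAi 0-2 h and 159 (percentile 83.0) in control 0-2 h, and CLAMP RNAi 2-4 h had no peak there. No other dpn site lay in the span or within 1 kb of it.

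The share of autosomal genes whose strongest peak ranked at least as high as that of dpn was 15.0% in CLAMP RNAi 2-4 h, 10.9% in control 2-4 h, 10.9% in CLAMP RNAi 0-2 h and 15.3% in control at 0-2 h. A strongest peak at or above the 90th percentile was found for 1 of the 4 autosomal partners, dpn, in 3 lists and for 0 of 4 in CLAMP RNAi 2-4 h. Over autosomal genes that share was 11.7% in CLAMP RNAi 2-4 h, 16.9% in control 2-4 h, 15.0% in CLAMP RNAi 0-2 h and 18.8% in control at 0-2 h. Counts of 1 or 0 of 4 cannot be told apart from these shares.

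The gro gene, at chr3R:26041736-26049911 in the Enhancer of split gene complex, had 3 peaks in CLAMP RNAi 2-4 h and 8 in control at 2-4 h. It had 5 in CLAMP RNAi 0-2 h and 7 in control at 0-2 h. No gro site was common to all lists. The higher ranked sites lay in neighbouring genes. One of them, chr3R:26052952-26053794 in Vps2, scored 206 (percentile 77.7) in control 2-4 h, 400 (percentile 89.6) in CLAMP RNAi 0-2 h and 142 (percentile 81.5) in control 0-2 h. The other, chr3R:26053998-26054384 at Vps2 and Cmpk, scored 235 (percentile 79.6), 44 (percentile 37.1) and 260 (percentile 88.6) in these lists. Neither site had a peak in CLAMP RNAi 2-4 h. Within gro itself, the site chr3R:26046325-26046687 was seen at 2-4 h alone, with a score of 41 (percentile 73.4) in CLAMP RNAi and 26 (percentile 15.2) in control. The site chr3R:26048503-26048925 was in the 3 other lists and absent from CLAMP RNAi 2-4 h, at percentile 49.2 in control 2-4 h, percentile 62.0 in CLAMP RNAi 0-2 h and percentile 29.7 in control 0-2 h. Peaks also overlapped E(spl)m8-HLH and E(spl)m7-HLH, which encode helix-loop-helix repressors that work with Groucho, and none of them ranked above percentile 40.5.

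All 10 peaks in the window of da, at chr2L:10388105-10393228, fell inside the gene, although 6 other genes reach into the window. CLAMP RNAi 2-4 h had 3 of them, control 2-4 h had 2, CLAMP RNAi 0-2 h had 3 and control 0-2 h had 2. The site chr2L:10392126-10392648 had a peak of each list and was the strongest in each. It scored 41 (percentile 73.4) in CLAMP RNAi 2-4 h and 84 (percentile 58.1) in control 2-4 h, and 52 (percentile 45.1) in CLAMP RNAi 0-2 h and 50 (percentile 53.9) in control 0-2 h. The higher percentile of CLAMP RNAi 2-4 h went with the lowest score, in the list whose scores are few and low. A site at chr2L:10388673-10389003 had peaks of both 0-2 h lists, chr2L:10389306-10389685 of both 2-4 h lists, and chr2L:10390627-10390957 of both CLAMP RNAi lists. None of the peaks at these 3 sites scored above 36.

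The emc gene, at chr3L:749400-753492, lies wholly within the longer gene hng3, and had the widest gap in peak number between genotypes at 2-4 h. There was 1 peak in CLAMP RNAi 2-4 h against 8 in control 2-4 h, and there were 2 in CLAMP RNAi 0-2 h against 4 in control 0-2 h. The strongest site in the span, chr3L:751374-751805, scored 259 (percentile 81.0) in control 2-4 h, 70 (percentile 57.5) in CLAMP RNAi 0-2 h and 98 (percentile 74.9) in control 0-2 h, with no peak in CLAMP RNAi 2-4 h. The only peak of CLAMP RNAi 2-4 h, chr3L:754799-754998, was 200 bp wide with a score of 24 (percentile 41.4) and shared a site with peaks of both control lists. In control 0-2 h the strongest peak lay just beyond the gene at chr3L:753750-753989 (score 123, percentile 79.1). Of the 7 genes, emc and gro had fewer peaks under CLAMP RNAi at both ages, and da had 1 more at both.

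Peak density was counted by midpoints so that it can be set against whole chromosomes. Around the X signal elements it lay above the X in both CLAMP RNAi lists and control 0-2 h, and below it in control 2-4 h. It was 2.49 peaks per 10 kb (1.14 to 4.73) in CLAMP RNAi 2-4 h, against 1.77 for the X, and 2.21 (0.955 to 4.36) in control 2-4 h, against 2.61. At 0-2 h it was 3.32 (1.72 to 5.80) in CLAMP RNAi, against 2.48, and 3.04 (1.52 to 5.44) in control, against 2.83. Each interval included the value of the X. These 3 genes differed widely among themselves, since upd1 alone held 29 of their 42 peaks and sc 4.

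Around the autosomal partners the density was 1.65 per 10 kb (0.789 to 3.03) in CLAMP RNAi 2-4 h, against 1.06 for the autosome arms, and 3.46 (2.14 to 5.28) in control 2-4 h, against 1.71. It was 2.30 (1.26 to 3.87) in CLAMP RNAi 0-2 h, against 1.51, and 2.80 (1.63 to 4.48) in control 0-2 h, against 1.96. Control 2-4 h, where emc and gro had 8 peaks each, was the only list of these 4 whose interval lay above the arms. The arm values are taken over the whole length of the arms, stretches far from genes included, whereas the windows lie around genes. Windows around other genes were not compared in density. Neighbouring peaks are not independent, so the true uncertainty is wider than these intervals. Although the X arm was denser in peaks than the autosome arms in each list, the autosomal partners were denser than the X signal elements in control 2-4 h, with overlapping intervals.

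**Figure D3:**
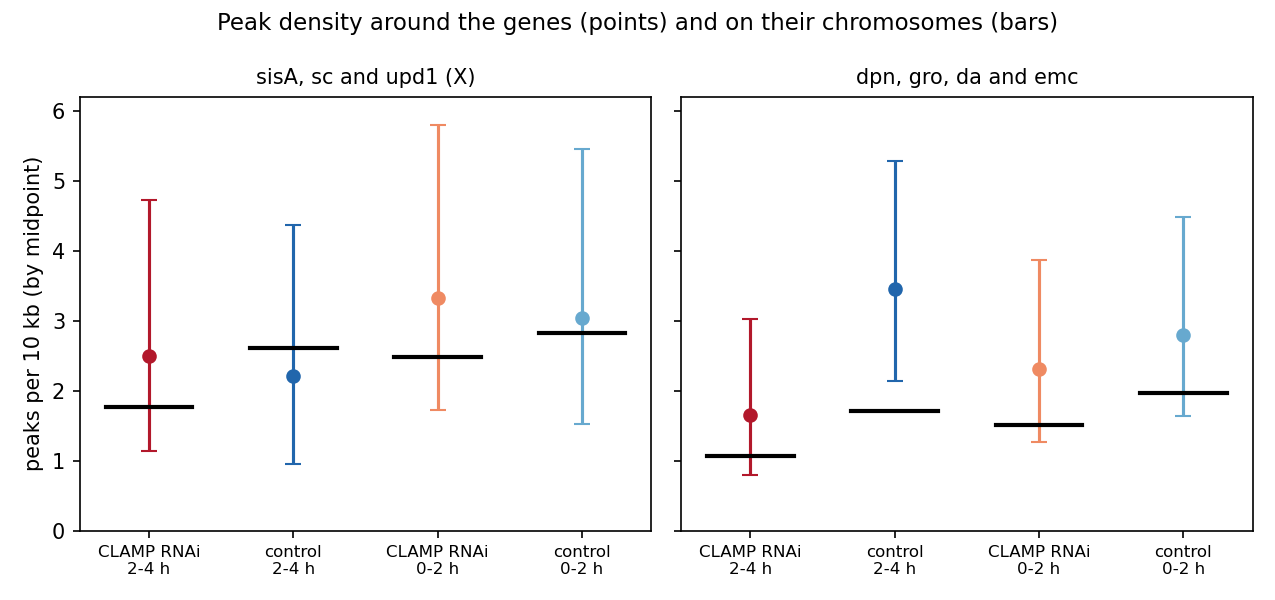
Peaks per 10 kb of window around the X signal elements (left) and the autosomal partners (right), counted by midpoint, with exact Poisson 95% intervals of counting error; black bars give the density of the X or of the autosome arms in the same list. The interval lies above the bar only for the autosomal partners in control 2-4 h, 3.46 against 1.71.

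Most of the 105 peaks lay outside the genes they were listed for. Within a span lay 33, a further 13 lay within 1 kb and 59 lay farther out, up to 5 kb. In the span lay 4 of 42 peaks for the X signal elements, all in upd1, and 29 of 63 for the autosomal partners. These shares have unlike bases, as the span filled from 779 of 10779 bp of the window at sisA to 8176 of 18176 bp at gro. No gene of the table was overlapped by 18 of the 42 X peaks and 14 of the 63 autosomal ones, and 12 of these 14 belonged to dpn. A score at or above the 90th percentile was reached by 6 peaks, all at dpn.

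Merging overlapping peaks of the lists gave 42 sites around the 7 genes, of which 11 had a peak of each list. The X signal elements had 7 of 15 such sites, or 46.7% (21.3% to 73.4%), against 27.9% of merged regions on the X. The autosomal partners had 4 of 27, or 14.8% (4.19% to 33.7%), against 17.6% of merged regions on the autosomes. Both intervals include the share over all regions. By gene there were 6 of 9 at upd1 (29.9% to 92.5%) and 3 of 4 at dpn (19.4% to 99.4%), both above the share of their class. There were 1 of 3 at sisA, 1 of 4 at da and 0 at sc, gro and emc, whose intervals all included that share. The upper limits were 70.8% for sc, 28.5% for gro and 36.9% for emc. All of these are counts of few and neighbouring sites. CLAMP RNAi 2-4 h alone lacked a peak at 3 of the 11 gro sites and at 2 of the 8 emc sites. Without CLAMP RNAi 2-4 h, the sites with a peak of each of the 3 remaining lists numbered 17. Of these, 7 lay around the X signal elements, or 46.7% of their sites against 44.7% of merged X regions, and 10 around the autosomal partners, or 37.0% against 32.3% of autosomal regions.

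**Figure D4:**
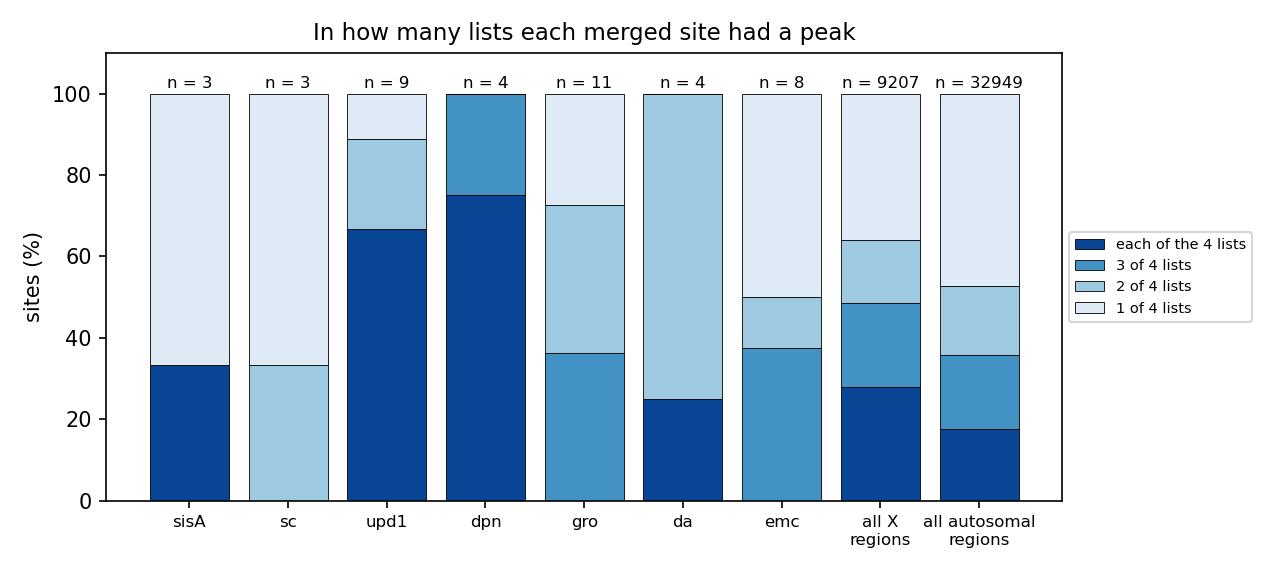
Share of merged sites around each gene, and of all merged regions on the X and on the autosomes, by the number of lists with a peak there; the number of sites stands above each bar. At upd1 and dpn most sites had a peak of each list, 6 of 9 and 3 of 4, whereas sc, gro and emc had no such site.

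Peaks were then looked up in the other genotype of the same age. Of the CLAMP RNAi 2-4 h peaks around the 7 genes, 16 of 19, or 84.2% (60.4% to 96.6%), overlapped a control 2-4 h peak by 1 base or more, against 65.0% of the whole list. In the other direction 15 of 31 control 2-4 h peaks, or 48.4% (30.2% to 66.9%), were found in CLAMP RNAi 2-4 h, against 40.6%. At 0-2 h, 21 of 27 CLAMP RNAi peaks, or 77.8% (57.7% to 91.4%), were found in control, against 74.4%. Of the control 0-2 h peaks, 21 of 28, or 75.0% (55.1% to 89.3%), were found in CLAMP RNAi 0-2 h, against 58.1%. All 4 intervals included the value of the whole list.

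Split by chromosome, 8 of 9 CLAMP RNAi 2-4 h peaks around the X signal elements had a match in their control, where 73.7% of all X peaks of the list did. For the autosomal partners it was 8 of 10, against 61.9% of autosomal peaks. CLAMP RNAi 2-4 h in turn matched 7 of 9 control 2-4 h peaks around the X signal elements, against 48.7% of X peaks, and 8 of 22 around the autosomal partners, or 36.4%, against 38.0%. At 0-2 h control peaks were found in CLAMP RNAi for 8 of 11 on the X, against 67.7%, and for 13 of 17 on the autosomes, against 55.2%. CLAMP RNAi 0-2 h peaks around the X signal elements were found in control for 8 of 13, against 79.2% of X peaks. For the autosomal partners it was 13 of 14, against 72.7%. Over the whole lists X peaks were matched more often than autosomal ones. Around the 7 genes this held at 2-4 h, whereas at 0-2 h the autosomal partners had the higher share in both directions. The counts around the 7 genes are of few and neighbouring peaks, and the exact interval of each included the share of its class.

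Between ages within a genotype, 13 of 19 CLAMP RNAi 2-4 h peaks, or 68.4% (43.4% to 87.4%), were found in CLAMP RNAi 0-2 h, against 60.5% of the whole list. The reverse was 13 of 27, or 48.1% (28.7% to 68.1%), against 42.5%. Control 2-4 h peaks were found in control 0-2 h for 20 of 31, or 64.5% (45.4% to 80.8%), against 74.0%. Of the control 0-2 h peaks, 21 of 28, or 75.0% (55.1% to 89.3%), were found in control 2-4 h, against 64.8%. The last count equals that of control 0-2 h peaks matched in CLAMP RNAi 0-2 h. These 4 intervals, too, included the value of the whole list.

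Other genes of the same pathway were taken as a list of 11. At least 1 peak lay around 10 of them in CLAMP RNAi 2-4 h, where upd2 had none, and around all 11 in each other list, against the shares of all X and autosomal genes given above. Sxl, the target of X counting, had 8 peaks in CLAMP RNAi 2-4 h, 12 in control 2-4 h, 16 in CLAMP RNAi 0-2 h and 15 in control at 0-2 h. Its strongest peak lay inside the gene and ranked at 99.2 in CLAMP RNAi 2-4 h, 81.3 in control 2-4 h, 84.3 in CLAMP RNAi 0-2 h and 80.8 in control at 0-2 h. In the same order, 3.59%, 51.6%, 43.4% and 56.9% of X genes ranked at least as high. These ranks hold within each list and show no change in binding at Sxl. The gene run, a further X signal element that encodes a Runt-domain protein, had 5, 6, 7 and 6 peaks in the same order of lists. The strongest run peak ranked at 83.1, 75.2, 77.7 and 81.5, which overlaps the range of upd1.

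Of the JAK/STAT genes, the relatives of upd1 that lie nearest to it differed from each other. At upd3 the strongest peak lay inside the gene and ranked at 97.7 in CLAMP RNAi 2-4 h, 99.2 in control 2-4 h, 99.2 in CLAMP RNAi 0-2 h and 99.4 in control at 0-2 h, above each peak of upd1. At upd2 it ranked at 64.2 in control 2-4 h, 37.1 in CLAMP RNAi 0-2 h and 74.9 in control at 0-2 h. The kinase gene hop had 2, 4, 5 and 5 peaks, the receptor gene dome 2, 3, 3 and 3, and Stat92E, which encodes the transcription factor, 1, 2, 2 and 3, from CLAMP RNAi 2-4 h to control 0-2 h. The zld gene on the X, which encodes the pioneer factor Zelda, had its strongest peak at between 98.7 and 99.3 in the 4 lists. The splicing factor genes snf and fl(2)d, whose products act on Sxl RNA, ranked at between 87.9 and 97.7 and between 95.8 and 98.3. The maternal factor gene her had 1 to 3 peaks in a list, none above 45.4. In score percentile the strongest peaks around zld, upd3, fl(2)d and snf exceeded those of all 7 counting genes in each list.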

How the data were processed

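CUT&RUN peak lists for MLE, 1 per group, were analysed as deposited. Per the submitters' processing notes, the tools included Trim Galore, BWA, Bowtie2, SAMtools, Picard 2.20.2 and MACS2 and the build was dm6. Their roles, the calling settings and any pooling of replicates are not given in the sources used here. Peak names, per the deposited files, show 1 sorted, deduplicated alignment per list. The score is the authors' deposited value for each peak, a whole number of at least 13. What it measures is not stated, so scores were ranked only within a list. The lists have no comparable scale, and the depth behind each is not given in the sources used here.

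Repeated intervals were collapsed to 1 with the highest score. Gene spans came from a RefSeq table of Release 6, the assembly called dm6, without strand or exons. A peak belonged to a gene when it shared at least 1 base with the span or the 5 kb on either side. All genes of the table on the 6 arms, the 7 included, gave the background. Shares carry exact Clopper-Pearson intervals and densities exact Poisson intervals. No test between groups was made, since none has more than 1 list. The members and the list of pathway genes were chosen with earlier results of these data known. The text names each of the 7 genes, the 11 pathway genes and neighbours inside a window. The scripts were checked on planted peaks. Python 3.11.15, pandas 2.3.3, NumPy 2.4.6 and SciPy 1.17.1 were used. Sequences of the sites were not analysed here.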

Additional observations from a re-analysis of the deposited data

Results flagged for a closer look

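For each item below, CLAMP RNAi minus control had opposite signs at 2-4 h and at 0-2 h. Whether the ages differ was not tested, as each group has 1 list. Percentiles come from lists of different lengths, so their differences show no change in binding. CLAMP RNAi 2-4 h, the shortest list, sets the equal length used below. Its percentiles then stay as they are, and those of control 2-4 h can only fall. At equal length the 2-4 h difference in percentile can therefore only rise, whatever the gene. The number of peaks around sc differed by 1 at 2-4 h and by -1 at 0-2 h, on totals of 0 to 2 peaks. With lists of equal length CLAMP RNAi 2-4 h alone had a peak around sc, but that list could lose none. Around upd1 the number of peaks differed by -2 at 2-4 h and by 3 at 0-2 h. The percentile of the strongest upd1 peak differed by 3.01 points at 2-4 h and by -3.20 points at 0-2 h. With lists of equal length it was 13.8 and 1.25 points, and in the span alone -4.52 and 0.760 points, so neither sign held. From a score of 50 it was -34.0 and -0.600 points, but that cut falls unequally on the lists. For dpn this difference was -6.18 points at 2-4 h and 0.761 points at 0-2 h, and at equal length -2.66 and 3.97 points, with the signs kept. For gro it was -6.19 points at 2-4 h and 1.03 points at 0-2 h, but 5.55 and 5.59 points at equal length and 24.2 and 12.2 points in the span, so the opposite signs were lost. For da it was 15.3 points at 2-4 h and -8.71 points at 0-2 h, but 39.4 and 4.39 points at equal length, again without opposite signs. The score of that da site was 41 under CLAMP RNAi and 84 in control at 2-4 h.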

How the results depend on the processing

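Counts of peaks depended on the window and on the score minimum. Values run from CLAMP RNAi 2-4 h, control 2-4 h and CLAMP RNAi 0-2 h to control 0-2 h. In the span alone, genes with a peak numbered 925, 1193, 1114 and 1306 on the X and 3517, 5129, 4464 and 5488 on the autosomes. The 7 genes had 5, 12, 8 and 8 peaks there, with 1 on the X in each list and 4, 11, 7 and 7 on the autosomes, and 3 genes had a peak in CLAMP RNAi 2-4 h. Within 1 kb the 7 genes had 6, 16, 13 and 11 peaks, made up of 1, 2, 5 and 1 on the X and 5, 14, 8 and 10 on the autosomes. Within 1 kb, 3 of the 7 genes and 1366 X genes had a peak in CLAMP RNAi 2-4 h, autosomal genes with one numbered 5551, 7991, 7000 and 8566, and 23.1% of CLAMP RNAi 0-2 h peaks had a match in CLAMP RNAi 2-4 h. Within 10 kb the 7 genes had 47 peaks in control 2-4 h (16 on the X), 41 in CLAMP RNAi 0-2 h (23 on the autosomes) and 44 in control 0-2 h (18 on the X, 26 on the autosomes).

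A score of at least 50 left 2 peaks of 2 genes in CLAMP RNAi 2-4 h (1 on the X, 1 on an autosome), 14 in CLAMP RNAi 0-2 h (6 and 8) and 17 in control 0-2 h (7 and 10). Genes with a peak in CLAMP RNAi 2-4 h then numbered 1267 on the X and 3783 on the autosomes, and the median of the strongest percentiles there was 42.8, against 73.4 without the minimum. Peaks of this score were found in the other list in 100% of cases when CLAMP RNAi 2-4 h was looked up in control of that age or in CLAMP RNAi 0-2 h, and control 0-2 h in control 2-4 h. For CLAMP RNAi 2-4 h this rests on 2 peaks. The share was 92.9% for CLAMP RNAi 0-2 h in control 0-2 h and 94.1% for the reverse. It was lower elsewhere, at 47.8% for control 2-4 h in CLAMP RNAi 2-4 h. CLAMP RNAi 0-2 h was found in CLAMP RNAi 2-4 h for 64.3%, and control 2-4 h in control 0-2 h for 78.3%. With lists of equal length, CLAMP RNAi 0-2 h had 17 peaks (7 on the X) and control 0-2 h had 18 (7 on the X, 11 on the autosomes). When 50% of the peak had to be shared, 22.2% of CLAMP RNAi 0-2 h peaks had a match in CLAMP RNAi 2-4 h. Sites with a peak in every list numbered 17 instead of 11 without CLAMP RNAi 2-4 h, an alternative chosen after seeing the data, as was the restriction to protein-coding genes, which moved no count past 1.5 times.

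The CLAMP RNAi minus control difference in peaks at 2-4 h, -12, became -7 in the span, -22 within 10 kb, -21 from a score of 50 and -4 at equal length, and kept its sign. At 0-2 h the difference of -1 became 0 in the span, 2 within 1 kb, -3 within 10 kb, -3 from a score of 50, -2 with repeats kept and -2 by midpoint, so its sign did not hold. Differences in the strongest percentile between genotypes turned sign with list length for sisA, upd1, gro and da. At 2-4 h equal length could shift them only upwards, as it shortened the control list alone. No paired analysis was possible because each group had 1 list and no replicate numbers.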
